A study of Mus musculus with 27 samples.

Results

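The mitochondrial genome transcripts were described here as the 37 genes of chromosome M among the 37332 genes of the count table. They were taken by chromosome alone, with no measured value, and comprised 13 mRNA genes, 2 rRNA genes and 22 tRNA genes by their GENCODE vM21 names and biotypes. The study fractionated 3 mouse cell types: the E14 embryonic stem cell line kept on gelatin with LIF (mESC), a neuronal progenitor line kept with EGF and FGF at 10 ng/ml (mNPC), and primary cortical neurons after 5 days in culture (mCtx). Each was split into chromatin-associated (Chr), soluble nucleoplasmic (Nuc) and cytoplasmic (Cyto) RNA with 3 libraries per group, 27 in all, and the labels name no genetic change or drug in any group. RNA over 200 nt was kept, rRNA was removed with a Ribo-minus kit, and stranded libraries were made without oligo-dT selection and read as 100 bp pairs. Both lines are single lines, the labels do not say whether replicates came from separate cultures, and p-values measure only the spread between these libraries.

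The mitochondrial genome is a small circle that is copied and transcribed inside the organelle, outside the nucleus. Both strands are transcribed as long precursors, in which tRNA sequences sit between most rRNA and mRNA sequences, and excision of the tRNAs releases the other RNAs. The heavy-strand precursor yields both rRNAs and all mRNAs but mt-Nd6, which is read from the other strand together with a subset of the tRNAs. The mRNAs encode subunits of respiratory complexes I, III and IV and of the ATP synthase, and all other subunits are encoded in the nucleus. Fragments of mitochondrial DNA have also been copied into nuclear chromosomes in evolution, and a read that fits both places cannot be assigned to one of them by its sequence.

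Some neighbouring members held almost no counts, and several of these have annotated copies elsewhere in the genome, so the sequences are shown first. A run of 11 neighbouring genes from mt-Ts1 to mt-Nd4l, at chrM:6870-10173 in mm10, held 427 counts in all 27 libraries together, and the highest count of any of them in any library was 52. The run contains 6 mRNA genes (mt-Co2, mt-Atp8, mt-Atp6, mt-Co3, mt-Nd3 and mt-Nd4l) and 5 tRNA genes (mt-Ts1, mt-Td, mt-Tk, mt-Tg and mt-Tr). The other 26 genes held 23451251 counts, and the lowest total among them was 265 for mt-Ts2. Annotated pseudogenes on the minus strand of chromosome 1, in 24611535 to 24616197, carry the same sequence in the same gene order. The first 60 bases of mt-Co2 (chrM:7013-7072, plus strand), which encodes a subunit of cytochrome c oxidase, and of its copy Gm28661 (chr1:24615506-24615565, minus strand) were identical letter for letter:
mt-Co2: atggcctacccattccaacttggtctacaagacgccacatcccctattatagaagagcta
Gm28661: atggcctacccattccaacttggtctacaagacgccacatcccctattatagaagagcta
Without gaps, mt-Co2 and Gm28661 matched at 681 of 681 compared bases, mt-Atp6 and Gm10925 at 678 of 678, mt-Co3 and Gm28437 at 783 of 783, and mt-Nd4l and Gm10222 at 294 of 294.

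A single compared pair in the run differed. mt-Nd3 (chrM:9459-9518, plus strand), a complex I subunit, and Gm28438 (chr1:24613060-24613119, minus strand) matched at 344 of 345 bases. The single difference is T3C, counted from 1 at the first base of mt-Nd3, with the mitochondrial base first, and is in capitals here:
mt-Nd3: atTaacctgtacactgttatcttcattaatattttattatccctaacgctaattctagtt
Gm28438: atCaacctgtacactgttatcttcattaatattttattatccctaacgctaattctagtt
At the upstream edge of the run lies mt-Co1, the catalytic subunit of cytochrome c oxidase. An annotated pseudogene on chromosome 2, Gm13340, covers all of it and matched at 1508 of 1545 bases. The chromosome 1 copy covers mt-Co1 only at its 3′ end. Gm29216 (chr1:24616138-24616197, minus strand) aligned with mt-Co1 from base 1054 (chrM:6381-6440, plus strand). The 6 differences (T1056A, C1057T, A1059G, A1060G, C1062A and A1066T, counted from the first base of mt-Co1) are in capitals, and all other bases up to the end of both genes were identical:
mt-Co1: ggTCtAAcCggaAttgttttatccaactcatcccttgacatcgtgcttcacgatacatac
Gm29216: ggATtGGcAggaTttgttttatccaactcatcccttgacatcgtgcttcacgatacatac
In 100-base windows, the length of 1 read, the share of windows found letter for letter in another annotated transcript was 99.5% for mt-Co2, 99.5% for mt-Atp6, 99.9% for mt-Co3, 97.6% for mt-Nd3 and 98.5% for mt-Nd4l. It was 60.8% for mt-Nd4, 30.8% for mt-Co1 and 3.19% for mt-Nd2. No such window was found for the rRNAs, mt-Nd1, mt-Nd5, mt-Nd6 or mt-Cytb. It was also 0 for mt-Atp8. The 5 tRNA genes of the run are shorter than a window, so each was searched as a whole, and none was found. The counts of mt-Atp8 and these tRNA genes were as low, and they lie between genes that have copies. Only annotated transcripts were searched, how reads that fit several places were counted is not given in the sources used here, and whether shared sequence lowered these counts was not tested.

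**Figure D1:**
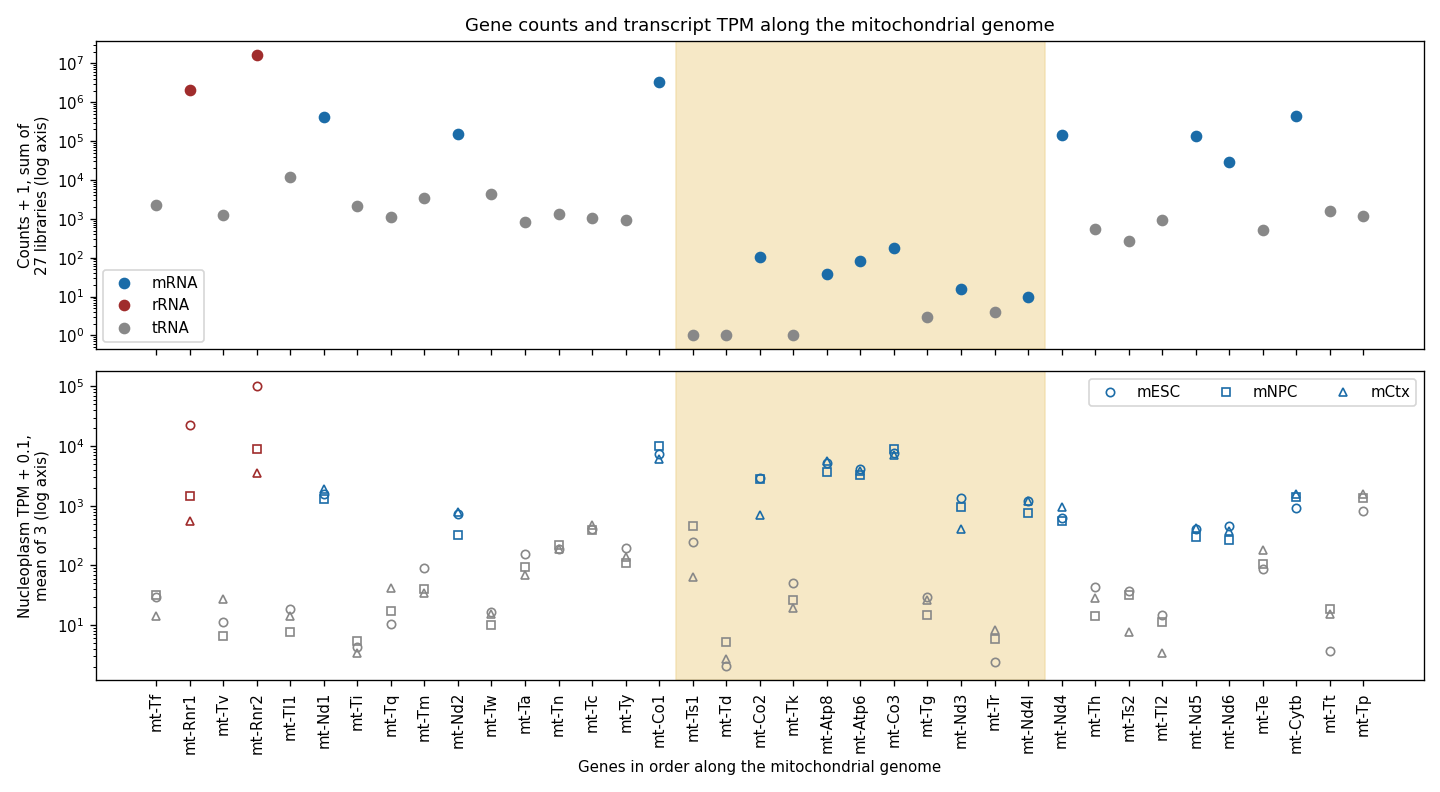
Upper panel: counts + 1 summed over the 27 libraries for each of the 37 genes in genome order (log axis, coloured by class). Lower panel: mean TPM + 0.1 of the 3 nucleoplasm libraries of each cell type (log axis, open symbols). The shaded 11 genes held 427 counts together. The TPM of the 6 mRNA genes among them lie in the range of the other mRNA genes, except that mt-Co3 lies above it in mESC and mCtx.

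No levels or fold changes from counts are given below for the genes of the shaded run. Of the 37 genes, 29 passed the low-count filter: 10 mRNA, both rRNA and 17 tRNA genes. Among the 10 mRNA genes, mt-Co2, mt-Atp6 and mt-Co3 lie in the run and passed with at most 52 counts in a library, so 26 of the tested genes lie outside it. Of these, 10 genes averaged at least 10 counts in all 9 groups: mt-Rnr1, mt-Rnr2, mt-Nd1, mt-Nd2, mt-Co1, mt-Nd4, mt-Nd5, mt-Nd6, mt-Cytb and mt-Tl1. The other 16, all tRNA genes, reached that mean in fewer groups and always in the 3 nucleoplasm groups, and the 3 genes of the run reached it in the mNPC nucleoplasm alone. A count over all 29 tested members thus partly restates the filter, so the 10 genes lead each comparison below and the count over all tested members follows as a description. For mt-Co1 and mt-Nd4, which are shared in part, levels per length may be too low.

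Libraries held 11249862 to 19871198 gene counts. Each cell type had the highest mean of all 6 of its own marker genes, and the stem cell markers summed to at most 3.51 CPM (counts scaled to a common library total) in mNPC and mCtx. The neuron markers reached 2108 CPM in an mNPC library, against 4854 to 8352 in mCtx. The 26 genes of a secretory pathway list, whose mRNAs are translated at the endoplasmic reticulum outside the nucleus, summed to 10466 to 14304 CPM in the mESC nucleoplasm against 1713 to 2244 in the mESC cytoplasm. In mNPC these ranges were 12548 to 15055 and 3691 to 4513, and in mCtx 4392 to 4740.0 and 3809.7 to 3997. The groups did not overlap in any cell type, and the part of such RNA in the results below was not tested. Markers of other cell types reached a summed 852 CPM for the oligodendrocyte lineage in an mNPC library and 374 CPM for endothelium in an mESC library.

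Mitochondrial mRNA genes took 1.85% ± 0.0168 (SD, n = 3) of all gene counts in the mESC nucleoplasm, 5.72% ± 1.27 (SD, n = 3) in the mNPC nucleoplasm and 1.45% ± 0.0780 (SD, n = 3) in the mCtx nucleoplasm. In the cytoplasm the order was another one, with 0.0137% ± 0.00431 (SD, n = 3) in mESC, 0.123% ± 0.0288 (SD, n = 3) in mNPC and 0.646% ± 0.0566 (SD, n = 3) in mCtx. Chromatin held 0.123% ± 0.0343 (SD, n = 3), 0.152% ± 0.0451 (SD, n = 3) and 0.0872% ± 0.00826 (SD, n = 3) in the same order of cell types. In each cell type the nucleoplasm share was above that of both other fractions in all 3 libraries. The cytoplasm share was the lowest of the 3 fractions in mESC, overlapped with chromatin in mNPC, and was above chromatin in mCtx. Of the 13 mRNA genes, 6 lie in the run with few counts and add almost nothing to these shares. By TPM, the mRNA genes took 3.42%, 3.44% and 3.09% of the nucleoplasm in mESC, mNPC and mCtx. The higher share of the mNPC nucleoplasm is thus that of the count table.

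The rRNA genes mt-Rnr1 and mt-Rnr2, which encode the 12S and 16S RNAs of the mitochondrial ribosome, held 80.2% of all counts on chromosome M. They took 27.7%, 26.0% and 28.0% of the 3 mESC nucleoplasm libraries, 8.60%, 3.20% and 4.18% of the mNPC and 0.600%, 0.641% and 0.751% of the mCtx nucleoplasm libraries. No library overlapped between these cell types, and mNPC library 1 lay above libraries 2 and 3. The mESC chromatin libraries gave 5.73%, 2.02% and 1.94%, the mNPC chromatin libraries 0.0584%, 0.0437% and 0.0426% and the mCtx chromatin libraries 0.0183%, 0.0253% and 0.0210%. Without mESC chromatin library 1, which stands apart, the mESC mean went from 3.23% to 1.98%. The cytoplasm libraries gave 0.367%, 0.265% and 0.190% for mESC, 0.0379%, 0.0292% and 0.0547% for mNPC and 0.436%, 0.278% and 0.889% for mCtx, where library 3 held over 3 times the share of library 2. Because rRNA was removed before sequencing, these shares give what was left, and a different efficiency of removal cannot be told apart from a different amount of RNA.

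**Figure D2:**
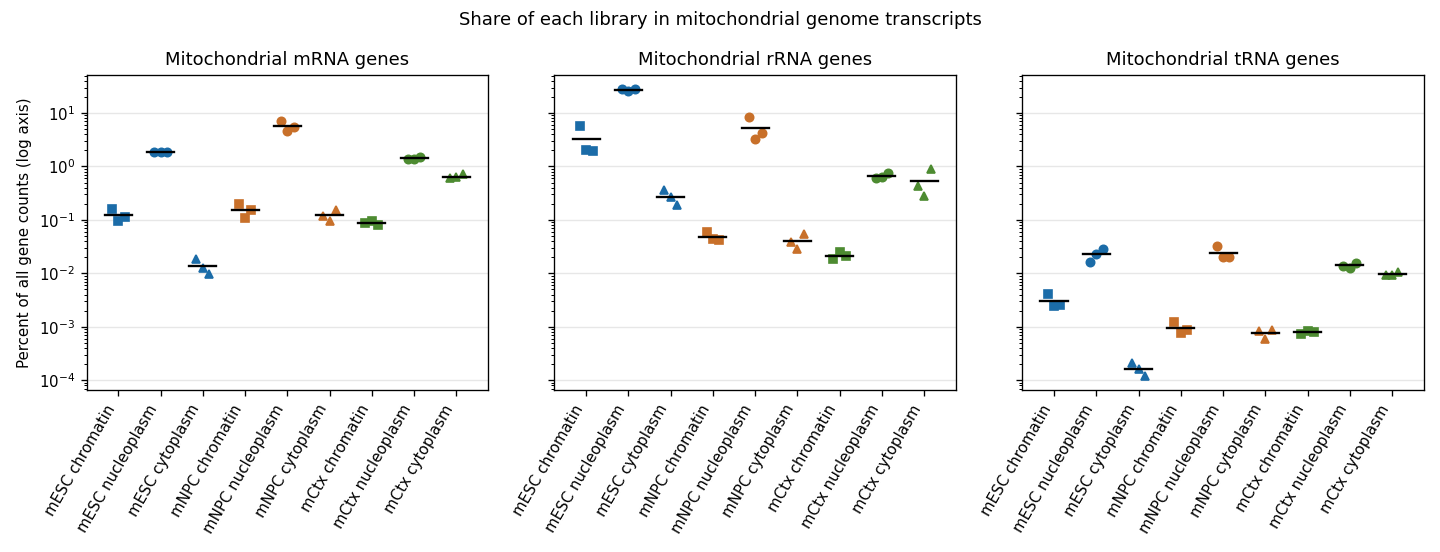
Percent of all gene counts in mitochondrial mRNA, rRNA and tRNA genes in each library (log axis; points are libraries, lines are means of 3). The nucleoplasm (circles) is the highest fraction for mRNA in all 3 cell types, and the mESC libraries hold the highest rRNA shares in chromatin and nucleoplasm.

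The tRNA genes took 0.0227% ± 0.00588 (SD, n = 3) of counts in the mESC nucleoplasm, 0.0246% ± 0.00752 (SD, n = 3) in the mNPC and 0.0141% ± 0.00170 (SD, n = 3) in the mCtx nucleoplasm. All 22 tRNA genes are 59 to 75 bases long, below the 200 nt at which RNA was selected and shorter than 1 read, so a mature tRNA on its own was not the size of RNA collected. In bulk samples, fewer mitochondria or cells of a type and less RNA in each cannot be told apart.

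The first comparison set the soluble nuclear fraction against the cytoplasmic one. Levels are relative to the scaled total of each library, so how the RNA of a cell is divided between fractions was not measured. Mitochondrial transcripts were higher in the nucleoplasm, by far the most in mESC and mNPC and less in mCtx. Of the 10 genes with counts in every group, 10 were higher in mESC, where 29.9% of the 18249 tested genes were higher and 33.2% lower. In mNPC 10 of 10 were higher, against 22.6% of all genes higher and 27.5% lower. In mCtx 8 of 10 were higher and 0 lower, against 29.6% and 28.6%. Counting both directions, 63.1%, 50.1% and 58.2% of all genes were called in mESC, mNPC and mCtx. Over the 29 tested members, 29, 29 and 17 were higher in the same order and 0 lower. The 10 genes had log2 fold changes of 6.67 to 8.40 in mESC and 5.64 to 7.67 in mNPC. In mCtx they were at most at 2.12, and mt-Rnr1 and mt-Rnr2 did not pass. The median log2 fold change of the 10 genes was 7.25, 6.14 and 1.62 for mESC, mNPC and mCtx, and that of all tested genes was 0.00, 0.00 and 0.00. These were edgeR quasi-likelihood tests with Benjamini-Hochberg adjustment over all 18249 genes, called at an adjusted p under 0.05. In the secretory pathway list, 24 of 26 genes were higher and 2 lower in mESC. For mNPC the counts were 20 higher and 2 lower, and for mCtx 8 higher and 12 lower, beside the shares of all genes above.

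mt-Cytb (chrM:14145-15288, plus strand, no shared window) encodes cytochrome b, the only mitochondrially encoded subunit of complex III. Its level in the mESC nucleoplasm was 1592, 1476 and 1440.1 CPM and in the mESC cytoplasm 12.7, 8.20 and 6.17 CPM. In mNPC it was 9308, 4842 and 5427 CPM against 75.5, 67.8 and 104, and in mCtx 2097, 2121 and 2168 against 595, 479 and 554. In all 3 cell types the lowest nucleoplasm library lay above the highest cytoplasm library. By these counts mCtx differed from both others by its high cytoplasm level, and from mNPC also by a lower nucleoplasm level. The edgeR log2 fold change was 7.37 ± 0.35 (SE), adjusted p = 2.45e-15, in mESC, 6.30 ± 0.33 (SE), adjusted p = 1.95e-14, in mNPC, and 1.97 ± 0.27 (SE), adjusted p = 6.01e-07, in mCtx.

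mt-Co1 (chrM:5328-6872, plus strand) held the most counts of the mRNA genes. In the nucleoplasm it stood at 14341, 13402 and 14502 CPM for mESC, 63849.9, 40960.2 and 44788 for mNPC and 8562, 8668 and 9737 for mCtx. In the cytoplasm it stood at 135, 93.2 and 77.6, 887, 753 and 1223 and 3407, 3795 and 4323 CPM. No nucleoplasm library overlapped with a cytoplasm library of its cell type. The edgeR log2 fold changes were 7.11 ± 0.32 (SE), adjusted p = 8.58e-16, in mESC, 5.71 ± 0.30 (SE), adjusted p = 1.88e-14, in mNPC, and 1.23 ± 0.25 (SE), adjusted p = 1.19e-04, in mCtx.

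mt-Nd1 (chrM:2751-3707, plus strand), a core subunit of complex I, gave 2021, 2441 and 2189.8 CPM in the mESC nucleoplasm and 16.6, 18.4 and 11.02 in the mESC cytoplasm. The mNPC values were 6234, 4043 and 4355 and 74.7, 66.2 and 108 CPM, and the mCtx values 1986, 2114 and 2202 and 647, 566 and 711. As for mt-Cytb, the groups were far apart in mESC and mNPC and nearer in mCtx, where the cytoplasm was highest. The log2 fold changes were 7.17, 5.88 and 1.71, with edgeR adjusted p of 1.65e-16, 1.95e-15 and 2.93e-07 in that order of cell types. The other complex I mRNAs behaved alike: mt-Nd2 gave 7.33, 5.91 and 2.11, mt-Nd4 7.65, 6.19 and 2.12, and mt-Nd5 7.53, 6.10 and 2.07 in that order, and all 9 values passed the test.

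mt-Rnr2 (chrM:1094-2675, plus strand) reached 276043, 242559 and 284536 CPM in the mESC nucleoplasm and 3224, 2418 and 1812 in the mESC cytoplasm. In mNPC it was 97032, 33627 and 40027 against 331, 267 and 504 CPM. In mCtx it was 5963, 6609 and 7520.1 against 3217, 2198 and 5909, and cytoplasm library 3 came close to the nucleoplasm. The log2 fold change was 6.75 ± 0.52 (SE), adjusted p = 2.93e-11, in mESC, 7.28 ± 0.54 (SE), adjusted p = 1.28e-11, in mNPC, and 0.83 ± 0.41 (SE), adjusted p = 0.0878, in mCtx by edgeR. Without cytoplasm library 3 the mCtx value was 1.31 (adjusted p = 0.0166) by edgeR. With the replicate number within a cell type as a block it was 0.89 and passed (edgeR adjusted p = 0.00333). On the log2(TPM + 1) scale of the second table it was 2.13 (limma adjusted p = 1.38e-04).

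mt-Rnr1 (chrM:70-1024, plus strand) reached 32122, 37064 and 29536 CPM in the mESC nucleoplasm against 458, 309.7 and 205 in the cytoplasm, and 7288, 3349 and 4859 against 21.6, 17.2 and 37.7 in mNPC. In mCtx the nucleoplasm held 573, 524 and 669 CPM and the cytoplasm 639.6, 198 and 1913, so the cytoplasm libraries lay on both sides of the nucleoplasm. The log2 fold changes were 6.67 ± 0.64 (SE), adjusted p = 1.64e-09, in mESC and 7.67 ± 0.68 (SE), adjusted p = 3.98e-10, in mNPC. The mCtx value was -0.64 ± 0.51 (SE), adjusted p = 0.295, by edgeR, and without cytoplasm library 2 it was -1.11 (adjusted p = 0.0394).

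mt-Nd6 (chrM:13552-14070, minus strand) is the mRNA of the other strand and encodes a complex I subunit. It gave 127, 228 and 276 CPM in the mESC nucleoplasm and 0.484, 0.892 and 0.484 in the cytoplasm, and in mNPC 404, 244 and 354 and 3.68, 1.94 and 3.96. In mCtx it gave 81.6, 88.2 and 85.9 in the nucleoplasm and 32.2, 23.2 and 32.7 in the cytoplasm. The groups did not overlap, and mESC nucleoplasm library 1 was the lowest of its group. The edgeR log2 fold changes were 8.40 ± 0.36 (SE), adjusted p = 3.54e-16, in mESC, 6.72 ± 0.30 (SE), adjusted p = 1.43e-15, in mNPC, and 1.54 ± 0.24 (SE), adjusted p = 3.04e-06, in mCtx. Whether strand was used in counting is not given in the sources used here, and without it RNA of mt-Nd6 and RNA of the opposite strand cannot be told apart.

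**Figure D3:**
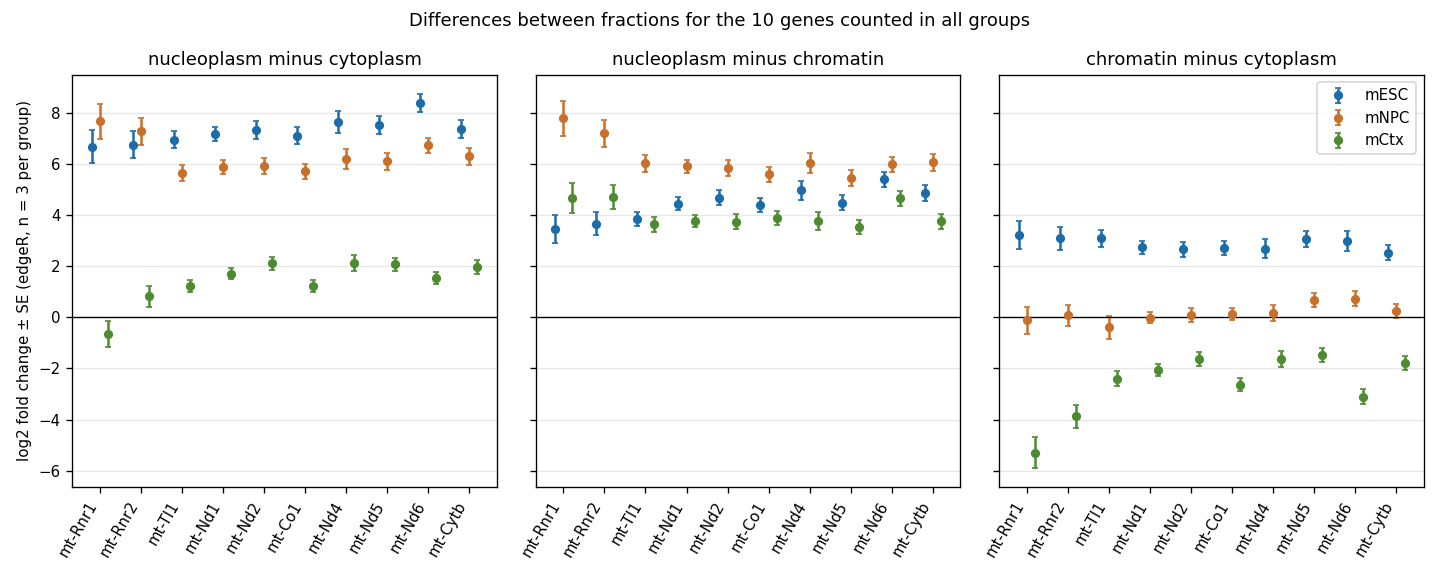
log2 fold change ± SE (edgeR, 3 libraries per group) between fractions for the 10 genes with a mean of 10 or more counts in all groups, by cell type. All 10 genes are above 0 in nucleoplasm minus chromatin, and in chromatin minus cytoplasm mESC lies above 0, mNPC near 0 and mCtx below 0.

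The second comparison set the nucleoplasm against chromatin, and it shares the nucleoplasm libraries with the first. All 10 genes with counts in every group were higher in each cell type, where 30% of all genes were higher in mESC, 32.5% in mNPC and 30.6% in mCtx. In both directions together the test called 66.3%, 66% and 57.1% of all genes, in the same order of cell types. The log2 fold changes of the 10 genes ran from 3.45 to 5.40 for mESC, from 5.43 to 7.78 for mNPC and from 3.54 to 4.70 for mCtx. Over the 29 tested members, 29, 29 and 28 were higher, and the member that did not pass in mCtx was mt-Co2, in the run with few counts. In mNPC the rRNA genes stood apart from the mRNA genes: mt-Rnr1 gave 7.78 and mt-Rnr2 7.20, while mt-Nd1, mt-Co1 and mt-Cytb gave 5.90, 5.59 and 6.06. In mESC the order was the other way round, with 3.45 and 3.66 for the rRNA genes and 4.44, 4.40 and 4.85 for the same mRNAs. The difference between rRNA and mRNA genes within a cell type was not itself tested here.

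The third comparison, chromatin against cytoplasm, took 3 different forms in the counts. In mESC 10 of the 10 genes with counts in every group were higher in chromatin, where 44.6% of all genes were higher. In mCtx 10 of 10 were lower in chromatin, where 37.6% of all genes were lower. In mNPC 2 were higher and 0 lower, where 37% and 32.5% of all genes were. Together the 2 directions took 77.5%, 69.5% and 73.3% of all genes in mESC, mNPC and mCtx. Over the 29 tested members, 24 were higher and 0 lower in mESC, 26 lower and 0 higher in mCtx, and 6 higher and 2 lower in mNPC. The mNPC count of 8 became 4 without chromatin library 1. mt-Cytb showed the pattern in its levels, with chromatin at 66.9, 38.9 and 50.1 CPM for mESC, 141, 62.1 and 89.1 for mNPC and 153, 171 and 146 for mCtx, beside the cytoplasm values given above. Chromatin lay above the cytoplasm in mESC without overlap, overlapped with it in mNPC, and lay below it without overlap in mCtx. The edgeR log2 fold changes were 2.52 ± 0.29 (SE), adjusted p = 1.60e-08, in mESC, 0.24 ± 0.27 (SE), adjusted p = 0.438, in mNPC, and -1.79 ± 0.27 (SE), adjusted p = 1.35e-06, in mCtx. On the log2(TPM + 1) scale of the second table the mCtx value for mt-Cytb was 0.19 and for mt-Nd6 0.50, so for these genes the direction in mCtx rests on the count table. For mt-Nd1 it was -0.05. In mNPC the same scale put chromatin above the cytoplasm, by 1.00 for mt-Cytb, 0.98 for mt-Co1, 0.81 for mt-Nd1 and 1.503 for mt-Nd6 (limma adjusted p of 0.00577, 0.00277, 0.0125 and 4.61e-04). The overlap of the fractions in mNPC is thus that of the count table too.

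Among the rRNA genes, mt-Rnr2 chromatin levels were 37446, 13348 and 12771 CPM for mESC, 474, 351 and 339 for mNPC and 208, 303 and 259.9 for mCtx. The chromatin-minus-cytoplasm log2 fold change of mt-Rnr2 was 3.09, 0.08 and -3.88, and that of mt-Rnr1 3.21, -0.12 and -5.30, in the same order. The mESC and mCtx values passed the test and the mNPC values did not, with edgeR adjusted p of 0.909 and 0.892 in mNPC. On log2(TPM + 1) the mNPC values were 1.03 for mt-Rnr2 (limma adjusted p = 0.0374) and 0.58 for mt-Rnr1 (0.383).

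Whether the fraction differences themselves differed between cell types was tested as a difference of differences in the same fit. The nucleoplasm-to-cytoplasm difference was smaller in mCtx than in mNPC for 10 of the 10 genes with counts in every group, against 19.3% of all genes, and than in mESC for 10 of 10, against 23.1%. It was smaller in mNPC than in mESC for 7 of 10, against 12.6%, and none of the 10 had a larger one in any of the 3. The counts over the 29 tested members were 28, 28 and 11. Of all genes, 37.9%, 46.1% and 24.2% differed in either direction in these tests. Malat1, a long noncoding RNA held in the nucleus, stood at 4846 to 6734 CPM in the mCtx cytoplasm libraries against 1254 to 1556 in mESC and 1314 to 1405 in mNPC, and the part of nuclear RNA in these cytoplasm libraries was not tested. The mNPC-against-mESC count of 11 ranged from 6 to 12 when single libraries were left out. The 6 was reached without mESC cytoplasm library 3, and it was 7 without mESC cytoplasm library 2 or mNPC cytoplasm library 3. The nucleoplasm-to-chromatin difference was larger in mNPC than in mESC for 7 of the 10 genes, against 17.9% of all genes. Over the 29 tested members this count was 17, and 11 without mESC chromatin library 1 or without mNPC nucleoplasm library 1. The difference was smaller in mCtx than in mNPC for 10 of the 10 genes, and for 12 of the 29, against 13.3% of all genes. Between mCtx and mESC it was larger for 0 and smaller for 2 of the 10 genes, against 22.3% and 6.77%. It was larger for 3 and smaller for 2 of the 29, and this count of 5 ranged from 1 to 9 over single libraries left out. It was 1 without mCtx nucleoplasm 1 or chromatin 2, 2 without mESC chromatin 2 or mCtx nucleoplasm 2 or 3, 3 without mESC nucleoplasm 2 or mCtx chromatin 1 or 3, and 9 without mESC nucleoplasm 3. With the replicate number within a cell type as a block it was 12. Of all genes, 30.2%, 37.4% and 29.1% differed in either direction in the 3 tests of this difference.

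The balance between rRNA and mRNA counts separated mESC from the other cell types. The mESC libraries held 24.6 ± 9.56 rRNA counts per mRNA count in chromatin, 14.7 ± 0.674 in the nucleoplasm and 19.9 ± 0.729 in the cytoplasm (mean ± SD, n = 3). The mNPC ratios were 0.327 ± 0.0671, 0.891 ± 0.280 and 0.326 ± 0.0272, and the mCtx ratios 0.247 ± 0.0314, 0.458 ± 0.0298 and 0.807 ± 0.412. The lowest mESC library, at 14.0, was above every mNPC and mCtx library, the highest of which stood at 1.25. The same ratio of TPM was 3.69 ± 0.177 in the mESC nucleoplasm, 0.279 ± 0.0691 in mNPC and 0.131 ± 0.00973 in mCtx, in the same order. Removal of rRNA moves this ratio directly, and how well it worked in each library was not tested.

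mt-Rnr2 exceeded mt-Rnr1 per base in every library. Their log2 ratio of counts per base was 3.26, 3.29 and 3.43 in mNPC chromatin, the highest group, and 1.60, 2.74 and 0.90 in mCtx cytoplasm, the lowest and most scattered. Group means elsewhere lay between 2.13 in mESC chromatin and 3.15 in mNPC cytoplasm. Averaged over cell types, no difference between fractions passed the exact permutation test of libraries within cell types (two-sided, 3 libraries per group, 8000 arrangements, smallest possible p 0.00025, adjusted over 12 ratio tests). The nucleoplasm-minus-chromatin difference was -0.16 (adjusted p = 0.370, exact permutation), nucleoplasm minus cytoplasm 0.19 (adjusted p = 0.507), and chromatin minus cytoplasm 0.35 (adjusted p = 0.258).

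Within the counted mRNAs, mt-Co1 took the largest part in every group, from 54.5% ± 0.936 (SD, n = 3) in mCtx chromatin to 80.4% ± 0.253 in mNPC cytoplasm. mt-Cytb took 5.65% ± 0.351 in mESC chromatin and 13.9% ± 0.313 in mCtx chromatin, its lowest and highest groups. Per kilobase in the mNPC nucleoplasm, the order of counted mRNAs was mt-Co1 at 32276 ± 7936 CPM per kb, mt-Cytb at 5704 ± 2122, mt-Nd1 at 5096 ± 1238, mt-Nd4 at 1286 ± 502, mt-Nd2 at 1133 ± 471, mt-Nd5 at 750.5 ± 292 and mt-Nd6 at 643 ± 158. The neighbours from mt-Cytb to mt-Nd1, and from mt-Nd4 to mt-Nd6, lay within 1 SD of each other. In the mESC nucleoplasm mt-Nd1 (2317 ± 221) stood above mt-Cytb (1314 ± 69.6), and mt-Nd2 (1032 ± 95.7) above mt-Nd4 (432 ± 88.5). In the mCtx nucleoplasm mt-Nd1 (2195 ± 113) was above mt-Cytb (1861 ± 31.3) and mt-Nd6 was lowest at 164 ± 6.48.

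The balance of mt-Co1 and mt-Cytb changed between fractions. The log2 ratio of mt-Co1 to mt-Cytb, in counts per base, was 2.74, 2.75 and 2.90 in the mESC nucleoplasm and 2.98, 3.07 and 3.21 in the mESC cytoplasm. It was 2.34, 2.65 and 2.61 against 3.12, 3.04 and 3.12 in mNPC, and 1.60, 1.60 and 1.73 against 2.08, 2.55 and 2.53 in mCtx. The nucleoplasm was the lower fraction in each cell type and no libraries overlapped. The mean difference was -0.53 (adjusted p = 0.00300, two-sided exact permutation test). Against chromatin the mean difference was -0.28 (adjusted p = 0.0440, same exact permutation test), with -0.45, -0.48 and 0.10 for mESC, mNPC and mCtx. With the replicate number as a block the adjusted p was 0.103, and with TPM in place of counts the difference was -0.16 (adjusted p = 0.0964, same exact permutation test). This call was also lost without any 1 of 12 libraries: all 6 of mESC, mNPC nucleoplasm 1, 2 and 3, mNPC chromatin 2 and 3, and mCtx nucleoplasm 1. Chromatin minus cytoplasm gave -0.25 (adjusted p = 0.164, exact permutation). Between cell types the mCtx level of this ratio was lowest, at 1.54 ± 0.02 in chromatin (mean ± SD) against 3.25 ± 0.10 in mESC and 3.02 ± 0.18 in mNPC.

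mt-Nd1 against mt-Cytb changed in the same direction between nucleoplasm and cytoplasm. The mean difference was -0.29 (adjusted p = 0.0300, two-sided exact permutation test), made up of -0.24, -0.38 and -0.26 for mESC, mNPC and mCtx. It did not pass without mESC nucleoplasm 1 or 3 or mESC cytoplasm 2 or 3, and libraries overlapped in mESC. With TPM in place of counts it was -0.22 (adjusted p = 0.0585, same exact permutation test) and did not pass. The nucleoplasm-minus-chromatin difference was -0.20 (adjusted p = 0.0653, exact permutation), and it passed without mNPC chromatin 1 or mCtx chromatin 1. In every fraction the mESC libraries lay above the mNPC libraries without overlap, and the log2 ratio averaged 1.25 ± 0.14, 0.82 ± 0.20 and 1.05 ± 0.39 in the mESC fractions and 0.04 ± 0.15, -0.13 ± 0.17 and 0.26 ± 0.04 in the mNPC fractions (chromatin, nucleoplasm, cytoplasm).

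**Figure D4:**
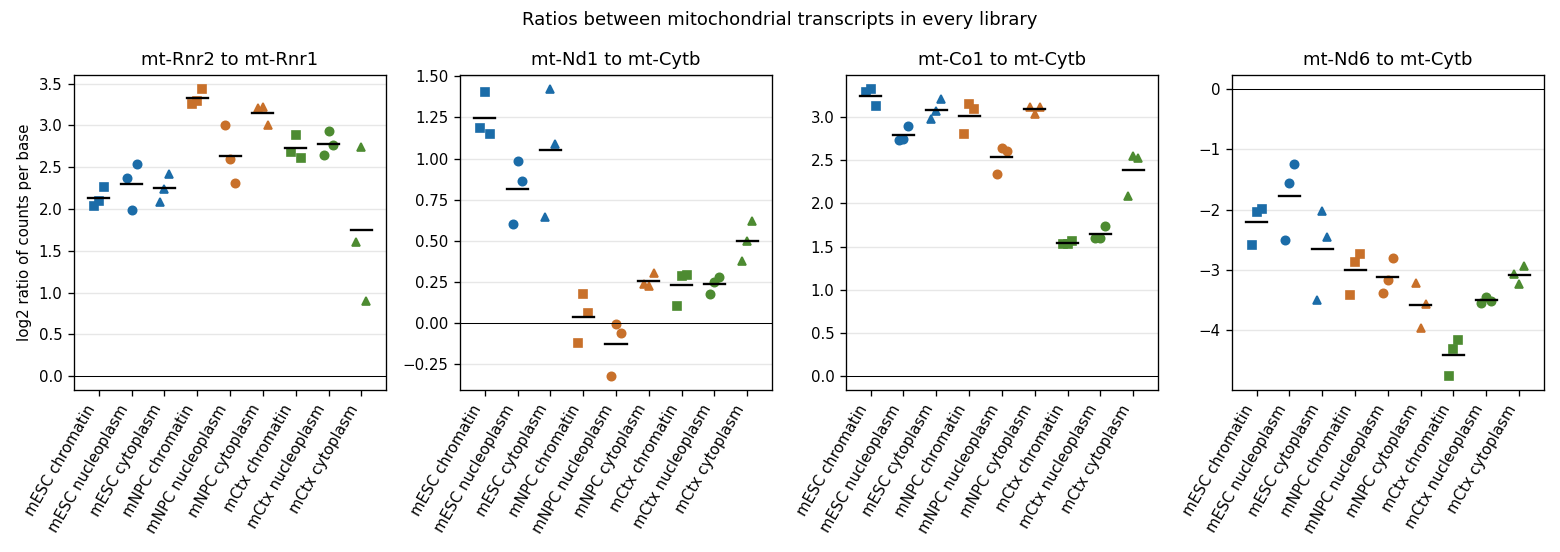
log2 ratio of counts per base for 4 pairs of mitochondrial genes in every library (points are libraries, lines are means of 3; squares chromatin, circles nucleoplasm, triangles cytoplasm). In the third panel the nucleoplasm of each cell type lies below its cytoplasm, and in the fourth panel mt-Nd6 lies below mt-Cytb in all 27 libraries.

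mt-Nd6, from the other strand, was below mt-Cytb per base in all 27 libraries. The log2 ratio was -2.50, -1.55 and -1.24 in the mESC nucleoplasm, -3.39, -3.17 and -2.80 in the mNPC and -3.54, -3.45 and -3.52 in the mCtx nucleoplasm. The mESC libraries spread widely and were the least negative. Between chromatin and cytoplasm the ratio moved one way in mESC (0.45) and mNPC (0.57) and the other way in mCtx (-1.33). The mean of these was -0.10 (adjusted p = 0.730, exact permutation). With TPM in place of counts it had the other sign and passed, at 0.43 (adjusted p = 0.0180, same exact permutation test). By counts, nucleoplasm minus chromatin gave 0.41 (adjusted p = 0.145) and nucleoplasm minus cytoplasm 0.31 (adjusted p = 0.360). All 9 minus-strand genes together, mt-Nd6 and 8 tRNA genes, held 1.14% ± 0.414 (SD, n = 3) of the mRNA and tRNA gene counts in the mESC nucleoplasm, the highest group, and 0.395% ± 0.0849 in mCtx chromatin, the lowest.

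Among the tRNA genes, mt-Tl1 had the highest mean level by counts, followed by mt-Tw, mt-Tm, mt-Tf and mt-Ti. This order is that of the count table. By TPM mt-Tl1 stood at 18.4, 7.65 and 14.1 in the nucleoplasm of mESC, mNPC and mCtx, and mt-Tp at 805, 1355 and 1596. mt-Tl1 encodes a leucine tRNA and lies directly between mt-Rnr2 and mt-Nd1 (chrM:2676-2750, plus strand). It is printed with its anticodon in capitals, because its 75 bases end where mt-Nd1 starts and a 100-base read over it must also cover a neighbour:
mt-Tl1: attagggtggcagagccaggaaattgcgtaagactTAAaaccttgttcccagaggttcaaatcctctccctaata
Its level was 86.6, 123 and 154 CPM in the mESC nucleoplasm and 1.08, 1.07 and 0.787 in the mESC cytoplasm. In mNPC it was 79.5, 51.8 and 51.6 against 1.103, 1.02 and 1.58 CPM, and in mCtx 44.2, 39.6 and 56.0 against 20.7, 16.1 and 23.2. The groups did not overlap in any cell type, as for the rRNA and mRNA beside it in mESC and mNPC. The nucleoplasm-minus-cytoplasm log2 fold changes were 6.94 ± 0.33 (SE), adjusted p = 3.00e-15, in mESC, 5.64 ± 0.32 (SE), adjusted p = 9.09e-14, in mNPC, and 1.23 ± 0.24 (SE), adjusted p = 8.88e-05, in mCtx by edgeR. In chromatin it stood at 10.4, 7.46 and 7.35, 1.72, 0.438 and 0.621 and 2.61, 3.81 and 4.81 CPM in mESC, mNPC and mCtx, and the nucleoplasm exceeded chromatin by 3.85, 6.02 and 3.63 (log2), all called.

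The other 4 named tRNA genes were higher in the nucleoplasm than in the cytoplasm of mESC and mNPC by the counts. All 4 averaged under 10 counts in the mESC cytoplasm, as did mt-Tw, mt-Tm and mt-Tf in the mNPC cytoplasm. Their fold changes there rest on values near the floor and partly restate the filter. For example, mt-Ti was at 0 to 0.0605 CPM in the mESC cytoplasm. mt-Tw, a tryptophan tRNA gene, gave log2 fold changes of 8.64, 6.18 and 0.29 in mESC, mNPC and mCtx. mt-Tm, a methionine tRNA gene, gave 7.51, 5.56 and 1.48. mt-Tf, for phenylalanine, gave 6.71, 5.79 and 0.01, and mt-Ti, for isoleucine, 7.71, 2.95 and 0.09. In mCtx only mt-Tm of these 4 passed the test, and mt-Tw, mt-Tf and mt-Ti did not (edgeR adjusted p of 0.353, 1.00 and 0.864). The TPM table went against the counts for mt-Tm: its TPM was 39.5 ± 25.8 in the mNPC nucleoplasm and 492 ± 89.4 in the mNPC cytoplasm (mean ± SD, n = 3), and for mt-Tw it was 9.81 ± 6.23 and 20.7 ± 4.49. The direction for mt-Tm in mNPC and mCtx, and for mt-Tw in mNPC, is therefore that of the count table alone.

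The TPM table did carry values for the 11 genes with few counts. The 6 mRNA genes of that run made up 61.2% of the mitochondrial mRNA TPM of the nucleoplasm, averaged over its 9 libraries. mt-Co3, a core subunit of cytochrome c oxidase, had 7563 ± 231, 8829.9 ± 3836 and 6982 ± 544 TPM (mean ± SD, n = 3) in the nucleoplasm of mESC, mNPC and mCtx, and 26.8 ± 30.0, 257 ± 35.6 and 2181 ± 332 in the cytoplasm. mt-Atp6 and mt-Atp8, which overlap and encode 2 subunits of the ATP synthase, had 4124 ± 287 and 5125 ± 637 TPM in the mESC nucleoplasm, 3219 ± 1933 and 3717 ± 2369.9 in the mNPC, and 3780.0 ± 108 and 5613 ± 333 in the mCtx nucleoplasm. The nucleoplasm was above the cytoplasm for each, as it was by counts for the mRNA genes outside the run.

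Part of the TPM was given to the chromosome 1 copies. For mt-Nd3, whose copy differs at 1 base, TPM in the nucleoplasm was 1334 ± 485 for the gene and 661 ± 147 for Gm28438 in mESC. The same pair had 940.2 ± 671 and 1476 ± 908 for mNPC, and 409.7 ± 33.6 and 2557 ± 43.7 for mCtx. The copy's part of their sum was 34.6%, 60.7% and 86.2% in the 3 nucleoplasm groups. For mt-Co2 and Gm28661, identical over the copy's length, that part was 52.5%, 61.4% and 84.8%. The sum of gene and copy was nearer between cell types than the gene alone for mt-Co2: the gene had 2879.6 ± 563, 2810.5 ± 2218 and 700.5 ± 63.1 TPM, and the mean sum was 6126, 6379.8 and 4634. mt-Atp6 had the opposite split in mCtx, where Gm10925 held 0.0729% of the sum against 25.01% in mNPC. Gm28439 and Gm10222 received 0 TPM in the nucleoplasm. Counts of Gm10222 were 48, 29 and 35 in the mESC nucleoplasm libraries, 40, 44 and 55 in the mNPC and 40, 32 and 129 in the mCtx nucleoplasm libraries.

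**Figure D5:**
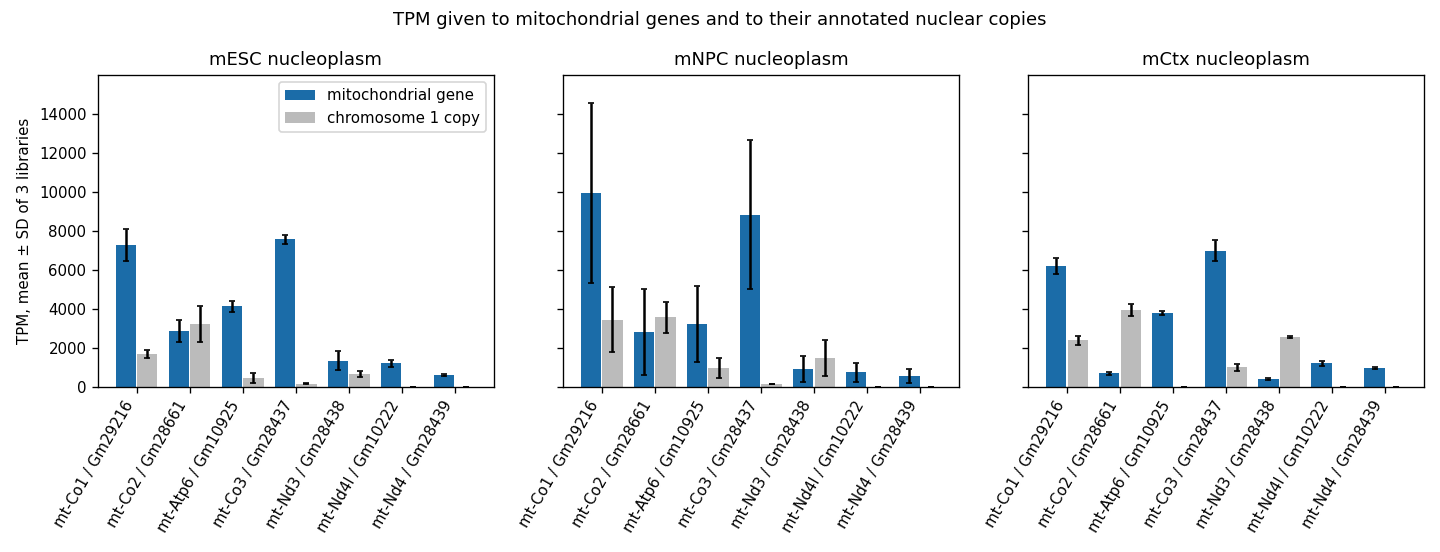
TPM (mean ± SD of 3 libraries) in the nucleoplasm given to 7 mitochondrial genes (blue) and to their chromosome 1 copies (grey). The mean of the mt-Co2 copy exceeds that of the mitochondrial gene in all 3 cell types, and that of the mt-Nd3 copy does in mNPC and mCtx. The copies of mt-Nd4l and mt-Nd4 are at 0.

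Between cell types, the cytoplasm gave the clearest ordering of mitochondrial mRNAs. Of the 10 genes with counts in every group, 10 were higher in mCtx than in mNPC cytoplasm (0 lower, 32.6% of all genes higher), and 9 were higher in mCtx than in mESC (0 lower, 40.1% of all genes higher). mNPC exceeded mESC for 7 of the 10 and was below it for 2, mt-Rnr1 and mt-Rnr2, where 36.5% and 39.4% of all genes were. Over the 29 tested members, 26, 26 and 18 were higher and 0, 0 and 2 lower, in the same order. All genes called in either direction made up 66%, 81.7% and 76% in these 3 comparisons. The log2 fold change of mt-Nd1 was 5.38 ± 0.27 (SE), adjusted p = 4.90e-16, for mCtx against mESC and 2.43 ± 0.24 (SE), adjusted p = 7.58e-10, for mNPC against mESC by edgeR. mt-Co1 gave 5.23 and 3.22, and mt-Cytb 5.90 and 3.19, in the same comparisons. mt-Rnr2 gave -2.76 ± 0.44 (SE), adjusted p = 2.78e-06, for mNPC against mESC. mt-Rnr1 was 1.5002 in mCtx against mESC (adjusted p = 0.00980), and without mCtx cytoplasm library 3 this was 0.38 (adjusted p = 0.457), by edgeR. On log2(TPM + 1) it was 0.35 (limma adjusted p = 0.723).

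In the nucleoplasm 6 of the 10 genes with counts in every group were higher and 3 lower in mNPC than in mESC, where 35.7% and 41.5% of all genes were. In mCtx against mNPC 0 were higher and 8 lower (36.9% and 34.9% of all genes), and in mCtx against mESC 0 were higher and 5 lower (38.8% and 43.4%). Over the 26 tested genes outside the run, 17 were higher and 4 lower, 1 higher and 20 lower, and 3 higher and 9 lower in these comparisons. Higher and lower genes together were 77.2%, 71.8% and 82.2% of all genes. The rRNA genes were lower in mNPC than in mESC and lower again in mCtx: mt-Rnr2 gave -2.23 ± 0.43 (SE), adjusted p = 4.00e-05, for mNPC against mESC and -3.09 ± 0.44 (SE), adjusted p = 6.45e-07, for mCtx against mNPC, and mt-Rnr1 gave -2.67 and -3.13. mt-Co1 was highest in mNPC, with 1.82 and -2.47 in the same 2 comparisons by counts, and both passed the test. On the log2(TPM + 1) scale its values were 0.35 and -0.57, and neither passed (limma adjusted p of 0.298 and 0.0539). The mt-Rnr1 value for mCtx against mNPC was -1.19 there and missed the threshold (limma adjusted p = 0.0519). mt-Nd1 gave 1.14 and -1.22 by counts but -0.35 and 0.65 on the log2(TPM + 1) scale, and mt-Nd6 flipped in the same way. mt-Cytb gave -1.62 by counts and 0.32 by TPM in mCtx against mNPC. For mt-Nd1, mt-Nd6 and mt-Cytb the order of cell types thus depends on the table, and for mt-Co1 the calls do. The mRNA genes of chromosome M together held 3.42%, 3.44% and 3.09% of the nucleoplasm TPM in mESC, mNPC and mCtx.

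In chromatin 2 of the 10 genes were higher and 4 lower in mNPC than in mESC, against 33.8% and 42.7% of all genes. The counts were 6 and 1 for mCtx against mNPC (30.2% and 39.2%) and 5 and 3 for mCtx against mESC (33% and 47.4%). For all 29 tested members they were 2 and 9, 8 and 7, and 6 and 11. Higher and lower genes together were 76.5%, 69.4% and 80.3% of all genes here. The largest fold changes among the members named here were those of the rRNA genes: mt-Rnr1 was -7.00 ± 0.66 (SE), adjusted p = 4.40e-10, and mt-Rnr2 -5.77 ± 0.50 (SE), adjusted p = 9.61e-11, in mNPC against mESC by edgeR. For mt-Co1, mt-Cytb and mt-Nd6 the direction in chromatin between mNPC and mESC differed between counts and TPM.

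Mitochondrial transcription, processing and decay are run by nuclear-encoded proteins, and 45 such genes were listed (polymerase and initiation factors, tRNA-excising nucleases, RNA-binding and decay factors, RNA-modifying enzymes). In the nucleoplasm against the cytoplasm 4 were higher and 28 lower in mESC. For mNPC 14 were higher and 17 lower, and for mCtx 10 higher and 17 lower. Of all genes, 29.9% were higher and 33.2% lower in mESC, 22.6% and 27.5% for mNPC, and 29.6% and 28.6% for mCtx. The median log2 fold changes were -0.46, -0.13 and -0.18 in that order of cell types, beside the medians of all genes given above. Polrmt, the mitochondrial RNA polymerase, was higher in the nucleoplasm of mESC (0.85) and mNPC (3.64). Pnpt1, the polynucleotide phosphorylase of mitochondrial RNA decay, was higher in mNPC (2.41) and mCtx (1.65), and Lrpprc, which stabilises mitochondrial mRNAs, in mCtx (2.22). Tfam, which packages mitochondrial DNA and starts its transcription, was lower in the nucleoplasm of mNPC (-1.17) and mCtx (-1.29). In the cytoplasm, where mitochondrial mRNAs were highest in mCtx, 36 of these 45 genes were lower and 3 higher in mCtx than in mESC, where 41.6% of all genes were lower and 40.1% higher, with a median of -1.37 against -0.05 for all genes.

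The partner subunits made in the nucleus, a list of 40 oxidative phosphorylation genes, were lower in the nucleoplasm more often than higher. In the nucleoplasm against the cytoplasm 7 were higher and 26 lower in mESC. For mNPC 9 were higher and 20 lower, and for mCtx 3 higher and 31 lower, beside the same shares of all genes. Cox6a1, a complex IV subunit, was among the highest in mESC (2.18) and mNPC (2.36). Atp5e, an ATP synthase subunit, was the lowest in all 3 cell types, at -1.66, -2.17 and -3.18. Chromatin was below the cytoplasm for 40 of 40 in both lines and for 39 in mCtx, where 32.9%, 32.5% and 37.6% of all genes were lower. Between cell types in the nucleoplasm, 38 of 40 were higher in mNPC than in mESC, against 35.7% of all genes, and 40 of 40 were lower in mCtx than in mNPC, against 34.9%. In the secretory list, Hsp90b1, a chaperone of the endoplasmic reticulum, was higher in the nucleoplasm, at 4.03, 3.38 and 2.04, and Sec61b, a small translocon subunit, was lower, at -0.45, -1.01 and -1.98, in mESC, mNPC and mCtx. Of 7 tested nuclear noncoding RNAs, 7, 5 and 5 were higher in the nucleoplasm, with 1 lower in mCtx.

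Across the 9 group means of log2 CPM, the pattern of mt-Cytb was most like those of other mitochondrial mRNAs, with a Pearson r of 0.997 for mt-Nd4 and 0.990 for mt-Nd1, and less like mt-Rnr2 (0.555). Outside chromosome M, among 10909 genes, the most alike included Pdia3 (0.986), Por (0.982), Atp6ap2 (0.969) and Ptprf (0.963). For mt-Rnr2 the nearest member was mt-Rnr1 (0.989), and the 5 nearest other genes were Tmppe (0.982), Slc38a2 (0.977), Nectin2 (0.948), Stt3a (0.938) and Slc38a7 (0.935). These values describe 9 points that share libraries and scaling, and have no test.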

How the data were processed

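Fractionated RNA of 27 mouse libraries (3 cell types, 3 fractions, 3 replicates each, taken from the labels) was analysed from 2 tables. The authors deposited whole-number counts per gene over whole gene spans for 37332 genes. The chromatin columns, labelled here as estimated counts, were handled as deposited by the authors, as whole-number counts per gene like all others. The authors also deposited TPM values for 53379 genes. STAR, featureCounts, kallisto and mm10 are named per the submitters' processing notes, without roles, and versions, strand setting and treatment of reads that fit several places are not given in the sources used here. Libraries totalled 11249862 to 19871198 counts.

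Counts were fitted with edgeR 4.0.16 (R 4.3.3): TMM scaling, filterByExpr (18249 genes), 1 coefficient per group over all 27 libraries (18 residual degrees of freedom), quasi-likelihood tests of 24 comparisons and Benjamini-Hochberg adjustment over all tested genes at 0.05. CPM were computed with the TMM-scaled library totals. Ratios of genes within a library used (count + 0.5) per base and an exact permutation test over libraries within cell types (8000 arrangements), adjusted over 12 tests. The fits were tested on simulated data. Alternatives were DESeq2 1.42.0, other scalings, no filter, only the groups compared, a test against a log2 fold change of 1, limma 3.58.1 on log2(TPM + 1) or log2(TPM + 0.1) with genes of at least 1 TPM in 3 libraries, a replicate block, libraries left out and other denominators. Tables and figures were made with python 3.11.15, pandas 2.3.3, numpy 2.4.6 and matplotlib 3.10.9.

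The members and gene lists were chosen with earlier results of these data known. Named with full values were both rRNA genes, the mRNA genes and the 5 tRNA genes with the highest mean CPM. Values in every nucleoplasm and cytoplasm library were given for mt-Rnr1, mt-Rnr2, mt-Nd1, mt-Co1, mt-Cytb, mt-Nd6 and mt-Tl1. For mt-Rnr2, mt-Cytb and mt-Tl1 those of the chromatin libraries were given too. From each list of nuclear genes some of the 2 highest and 2 lowest fold changes past the threshold between nucleoplasm and cytoplasm were named. Same-numbered libraries deviated together in mESC, with correlations of 0.388 to 0.751 between fractions, and between chromatin and cytoplasm in mNPC, at 0.185 to 0.361. In the other comparisons at least 1 pair was at or below 0.1 and the numbers were not taken as pairs. No 2 libraries held identical values. One of the genes most like mt-Cytb is not reported here. Sequences, positions and gene types are those of GENCODE vM21 on mm10.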

Additional observations from a re-analysis of the deposited data

Results flagged for a closer look

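Beside each of these results stands the test of the difference itself, the interaction of fraction and cell type in the edgeR fit of all libraries. 7 genes were looked at in 6 such comparisons, which share libraries with each other, and 32 of the 42 differences passed. Of all tested genes, 24.2% to 46.1% differed in either direction in these comparisons.

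The nucleoplasm-to-cytoplasm difference was smaller in mNPC than in mESC, by a log2 difference of -1.29 for mt-Nd1, -1.40 for mt-Co1, -1.67 for mt-Nd6 and -1.07 for mt-Cytb (edgeR, adjusted p from 0.00340 to 0.0431). It was smaller in mCtx than in mNPC, by a log2 difference of -8.31 for mt-Rnr1, -6.45 for mt-Rnr2, -4.41 for mt-Tl1, -4.17 for mt-Nd1, -4.48 for mt-Co1, -5.18 for mt-Nd6 and -4.33 for mt-Cytb (edgeR, adjusted p from 5.42e-11 to 8.06e-09). It was also smaller in mCtx than in mESC, by a log2 difference of -7.30 for mt-Rnr1, -5.92 for mt-Rnr2, -5.71 for mt-Tl1, -5.46 for mt-Nd1, -5.88 for mt-Co1, -6.86 for mt-Nd6 and -5.40 for mt-Cytb (edgeR, adjusted p from 1.22e-12 to 2.15e-08). The cytoplasm level of mt-Cytb was 595, 479 and 554 CPM in the mCtx libraries against 12.7, 8.20 and 6.17 in mESC.

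The nucleoplasm-to-chromatin difference was larger in mNPC than in mESC, by a log2 difference of 4.33 for mt-Rnr1, 3.54 for mt-Rnr2, 2.18 for mt-Tl1, 1.46 for mt-Nd1, 1.19 for mt-Co1 and 1.21 for mt-Cytb (edgeR, adjusted p from 5.52e-05 to 0.0148). It was smaller in mCtx than in mNPC, by a log2 difference of -3.12 for mt-Rnr1, -2.49 for mt-Rnr2, -2.39 for mt-Tl1, -2.13 for mt-Nd1, -1.72 for mt-Co1, -1.34 for mt-Nd6 and -2.30 for mt-Cytb (edgeR, adjusted p from 5.70e-06 to 0.00826). Between mCtx and mESC a single one of the 7 genes passed, by a log2 difference of -1.09 for mt-Cytb (edgeR, adjusted p = 0.0288). With the replicate number as a block mt-Nd1 (-0.68, adjusted p = 0.0189), mt-Co1 (-0.58, adjusted p = 0.0222) and mt-Nd6 (-0.69, adjusted p = 0.0374) passed as well by edgeR. So did mt-Nd1 without mESC chromatin 1 (-0.86, adjusted p = 0.0430) and mt-Nd6 without mESC nucleoplasm 1 (-0.99, adjusted p = 0.0254). mt-Cytb did not pass in mCtx against mESC without mESC chromatin 2, mCtx nucleoplasm 1 or 2, or mCtx chromatin 2. In mNPC against mESC it did not pass without mNPC nucleoplasm 1 or chromatin 2 for chromatin, nor without any of 7 libraries for the cytoplasm (mESC nucleoplasm 1 or 2, mESC cytoplasm 2 or 3, mNPC nucleoplasm 2 or 3, mNPC cytoplasm 3). On log2(TPM + 1) the mNPC-against-mESC values for chromatin were 0.88 for mt-Tl1, 0.72 for mt-Co1 and 0.98 for mt-Cytb, and none of the 3 passed (limma adjusted p of 0.508, 0.146 and 0.0813). On that scale mt-Tl1 in mCtx against mNPC reversed to 0.39 for chromatin and gave -1.06 for the cytoplasm (limma adjusted p of 0.775 and 0.341). Between mCtx and mESC it gave -0.83 for mt-Cytb and -1.28 for mt-Nd6 for chromatin (limma adjusted p of 0.128 and 0.0340).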

How the results depend on the processing

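Of the counts of members called in the 24 comparisons (of 29 tested), all stayed within 1.5 times under DESeq2, median-ratio scaling, TMM without chromosome M, no low-count filter and without the 3 mESC libraries numbered 1 (13 mESC comparisons, chosen after seeing the data). The counts that follow describe the members under other settings. The share of all genes called under each setting is not given beside them, so a changed count is not a result about the members. Scaling by total counts gave 10 of 29 in Nuc-to-Chr ratio, mCtx vs mESC. Fitting only the groups compared gave 5 of 13 in Chr vs Cyto in mNPC, 10 of 11 in mNPC vs mESC in Cyto and 11 of 29 in Nuc-to-Chr ratio, mNPC vs mESC. A test against a log2 fold change of 1 gave 2 of 29 in Chr vs Cyto in mNPC, 8 of 29 in Nuc vs Cyto in mCtx, 6 of 29 in mNPC vs mESC in Chr, 5 of 29 in mCtx vs mNPC in Chr, 7 of 29 in mCtx vs mESC in Chr, 15 of 29 in mNPC vs mESC in Nuc, 6 of 29 in mCtx vs mESC in Nuc, 1 of 29 in Nuc-to-Cyto ratio, mNPC vs mESC, 5 of 29 in Nuc-to-Chr ratio, mNPC vs mESC and 0 of 29 in Nuc-to-Chr ratio, mCtx vs mESC. limma on log2(TPM + 1) gave 18 of 37 in Chr vs Cyto in mNPC, 6 of 37 in mNPC vs mESC in Nuc, 11 of 37 in mCtx vs mNPC in Nuc and 5 of 37 in Nuc-to-Chr ratio, mNPC vs mESC, and on log2(TPM + 0.1) 20 of 37 in Chr vs Cyto in mNPC, 5 of 37 in mNPC vs mESC in Nuc, 8 of 37 in mCtx vs mNPC in Nuc, 6 of 37 in mCtx vs mESC in Nuc, 18 of 37 in Nuc-to-Cyto ratio, mCtx vs mNPC, 4 of 37 in Nuc-to-Chr ratio, mNPC vs mESC and 3 of 37 in Nuc-to-Chr ratio, mCtx vs mESC. With the replicate number within cell type as a block the count was 12 in Nuc-to-Chr ratio, mCtx vs mESC, the mean log2 ratio difference of mt-Co1 to mt-Cytb between nucleoplasm and chromatin was -0.28 and no longer passed, and no other count moved by over 1.5 times and no other ratio changed its call. For single genes 12 calls were gained with the block. They included mt-Cytb in mCtx vs mESC in Nuc (0.49, edgeR adjusted p = 0.00717) and mt-Rnr2 in mCtx vs mESC in Cyto (0.57, 0.0423). Gained too were mt-Tl1 in Nuc-to-Cyto ratio, mNPC vs mESC (-1.25, 0.0300) and mt-Nd6 in Nuc-to-Chr ratio, mNPC vs mESC (0.64, 0.0236). Leaving out 1 library at a time, the counts ranged from 11 to 20 in Nuc-to-Chr ratio, mNPC vs mESC, from 1 to 9 in Nuc-to-Chr ratio, mCtx vs mESC, from 6 to 12 in Nuc-to-Cyto ratio, mNPC vs mESC and from 4 to 8 in Chr vs Cyto in mNPC, and the ratio differences from -0.23 to -0.16 for mt-Nd1 to mt-Cytb: Nuc vs Chr, from -0.36 to -0.23 for mt-Nd1 to mt-Cytb: Nuc vs Cyto and from -0.31 to -0.25 for mt-Co1 to mt-Cytb: Nuc vs Chr. With TPM in place of counts these ratio differences were -0.22 for mt-Nd1 to mt-Cytb: Nuc vs Cyto, -0.16 for mt-Co1 to mt-Cytb: Nuc vs Chr and 0.43 for mt-Nd6 to mt-Cytb: Chr vs Cyto, the last of them reversed and past the test and the others no longer past it. Single genes whose direction reversed in the TPM table are given with log2(TPM + 1) first and log2(TPM + 0.1) second. In Nuc vs Cyto in mNPC they were -3.84 and -3.88 for mt-Tm and -1.19 and -1.31 for mt-Tw. In Chr vs Cyto in mNPC they were 0.81 and 0.83 for mt-Nd1. In Nuc vs Cyto in mCtx they were -2.72 and -2.75 for mt-Tm. In Chr vs Cyto in mCtx they were 0.50 and 0.51 for mt-Nd6 and 0.19 and 0.19 for mt-Cytb. In mNPC vs mESC in Chr they were -0.38 and -0.38 for mt-Co1, -1.03 and -1.08 for mt-Nd6 and -0.51 and -0.52 for mt-Cytb. In mCtx vs mNPC in Chr they were 1.30 and 1.35 for mt-Rnr1, 0.72 and 0.72 for mt-Co1 and 2.06 and 2.13 for mt-Nd6. In mCtx vs mESC in Chr they were 1.03 and 1.05 for mt-Nd6. In mNPC vs mESC in Nuc they were -0.35 and -0.35 for mt-Nd1 and -0.91 and -0.91 for mt-Nd6. In mCtx vs mNPC in Nuc they were 0.65 and 0.65 for mt-Nd1, 0.65 and 0.65 for mt-Nd6 and 0.32 and 0.32 for mt-Cytb. In Nuc-to-Chr ratio, mCtx vs mNPC they were 0.39 and 0.35 for mt-Tl1. By total counts mt-Nd1 reversed to -0.20 in mCtx vs mESC in Chr. The cause was not tested for any of these changes. As a share of TPM, mRNA genes took 0.260% in mESC Chr, 3.42% in mESC Nuc, 3.44% in mNPC Nuc, 0.0760% in mNPC Cyto, 0.308% in mCtx Chr, 3.09% in mCtx Nuc and 0.564% in mCtx Cyto. As a share of TPM, rRNA genes took 12.6% in mESC Nuc, 0.109% in mESC Cyto, 0.0162% in mNPC Chr, 1.04% in mNPC Nuc, 0.00820% in mNPC Cyto, 0.0298% in mCtx Chr, 0.403% in mCtx Nuc and 0.122% in mCtx Cyto. As a share of TPM, tRNA genes took 0.0430% in mESC Chr, 0.244% in mESC Nuc, 0.00921% in mESC Cyto, 0.0182% in mNPC Chr, 0.299% in mNPC Nuc, 0.0808% in mNPC Cyto, 0.0377% in mCtx Chr, 0.297% in mCtx Nuc and 0.170% in mCtx Cyto. With protein-coding and chromosome M counts as the denominator the shares were 1.97% (mRNA, mESC Nuc), 0.704% (mRNA, mCtx Cyto), 29.0% (rRNA, mESC Nuc) and 0.0106% (tRNA, mCtx Cyto). Total-count scaling moved the median of all genes by -0.79 to 0.79 (log2, over 0.1 in 17 of 24 comparisons), so changes under it are relative to another zero, and median-ratio scaling moved it by -0.21 to 0.18. Of the 17 tested tRNA genes mt-Tl1 alone averaged 10 counts in all groups, and 3 libraries per group limit every spread.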

Other observations

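Nuclear noncoding RNAs gave levels of the nuclear fractions beside which the mitochondrial values can be read. Malat1 stood at 6009.6 ± 2189 CPM in mESC chromatin, 6122 ± 3344 in the nucleoplasm and 1383 ± 156 in the cytoplasm (mean ± SD, n = 3). In mNPC it was 21319 ± 478, 7405 ± 1029 and 1372 ± 50.3, and in mCtx 7986 ± 860.0, 8840.0 ± 399 and 5907 ± 966 CPM. Tug1, another long noncoding RNA, was higher in the nucleoplasm than in the cytoplasm of mESC (log2 fold change 2.71, edgeR adjusted p = 5.80e-12) and lower in mCtx (-0.66, adjusted p = 0.00252). Airn and Meg3 were the highest of the list in mCtx, at 2.04 and 1.56.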
